A study of Mus musculus with 9 samples.

Results

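Cells obtain purine and pyrimidine nucleotides in 2 ways: they build the rings from small precursors (de novo synthesis), or they recover bases and nucleosides released when nucleic acids turn over (salvage). The genes described here are 33 enzymes of these routes, chosen by their symbols and not by how they behaved. Probe sets for 30 of them were found among the 12393 genes named on the array, each gene being read by its probe set with the highest mean signal over all arrays, and 29 were bright enough to be tested. No probe set carried the symbol of Pfas, Impdh2 or Gmps in the annotation used, and Nt5e, the ecto-enzyme that turns extracellular AMP into adenosine, lay below the brightness limit. The members had 51 probe sets in all, of which 44 were tested.

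RNA came from the proximal colon of 9 mice, 1 array per mouse: 3 mutant, 3 heterozygous and 3 wild-type for Shmt1. Its product, cytosolic serine hydroxymethyltransferase (cSHMT), moves a carbon unit from serine to tetrahydrofolate. All 9 mice, the wild-type ones included, were C57Bl/6 (backcrossed for 10 generations), were weaned at 3 weeks onto an AIN-93G diet without folate and choline, and were 9 weeks old. For the length of the diet the labels disagree, with 6 weeks in the characteristics and 5 weeks in the protocol. No group on a folate-replete diet was analysed here, so the diet is shared by every comparison. The labels do not say how Shmt1 was altered or whether any activity remains.

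De novo purine synthesis takes carbon units from folate at the steps of Gart and Atic, and thymidylate synthesis takes one at the step of Tyms, whereas the pyrimidine ring itself is closed without folate. Ribonucleotide reductase then makes deoxyribonucleotides from ribonucleotides, and it is most abundant in dividing cells. In the colon the dividing cells lie in the lower crypt, and the wall also holds muscle, stroma and immune cells whose RNA is in the same extract. In such a bulk extract, fewer cells of a type and less RNA per cell cannot be told apart.

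The arrays were checked against their labels first. Shmt1, on the probe set that separated the genotypes most, read 116.9, 120 and 113.1 signal units in mutant colons, 297.9, 274.4 and 337 in heterozygous colons, and 564.3, 575.7 and 644.1 in wild-type colons. The 3 genotypes did not overlap on it. The 9 markers of absorptive colonocytes were all tested, with a summed signal of 21669 to 28005 in mutant, 21264 to 25148 in heterozygous and 23462 to 26289 in wild-type colons. Of these, the water channel Aqp8 was low in heterozygous 1 and 2 (30 and 44.8). Correlations between arrays over all probe sets, on the log2 scale, lay between 0.9838 and 0.9932. RNA shortening was read as the actin ratio, the actin signal at the 3' end over that at the 5' end. The part of amplification in this ratio was not tested. The actin ratio was greatest on the arrays numbered 1 and least on those numbered 3. For arrays 1, 2 and 3 it was 4.84, 3.75 and 2.73 in mutant, 4.45, 3.05 and 2.57 in heterozygous and 5.02, 3.15 and 2.52 in wild-type colons. Only 3 mice per genotype limit the precision of every value below.

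The promoters of 3 members are shown because their genes are followed mouse by mouse further on: Rrm1 and Rrm2, which code for the large and the small subunit of ribonucleotide reductase and are set beside the markers of dividing cells, and Upp1, which codes for uridine phosphorylase and varied most within genotypes. Each line gives the 250 bases before the RefSeq start of the gene, on the plus strand of GRCm38.p6, with CCAAT boxes in capitals. The windows are chr7:102441445-102441694 for Rrm1, chr12:24708004-24708253 for Rrm2 and chr11:9117758-9118007 for the most upstream of 3 annotated starts of Upp1.
Rrm1: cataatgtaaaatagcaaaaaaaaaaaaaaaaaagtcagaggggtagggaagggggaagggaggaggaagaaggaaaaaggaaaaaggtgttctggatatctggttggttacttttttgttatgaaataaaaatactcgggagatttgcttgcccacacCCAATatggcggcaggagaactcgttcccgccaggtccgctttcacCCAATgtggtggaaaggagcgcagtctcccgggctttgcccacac
Rrm2: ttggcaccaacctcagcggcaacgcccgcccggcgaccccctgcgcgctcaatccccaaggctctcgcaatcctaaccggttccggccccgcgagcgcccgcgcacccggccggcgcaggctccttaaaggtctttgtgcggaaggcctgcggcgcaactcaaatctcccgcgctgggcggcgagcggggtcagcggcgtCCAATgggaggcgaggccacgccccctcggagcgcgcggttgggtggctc
Upp1: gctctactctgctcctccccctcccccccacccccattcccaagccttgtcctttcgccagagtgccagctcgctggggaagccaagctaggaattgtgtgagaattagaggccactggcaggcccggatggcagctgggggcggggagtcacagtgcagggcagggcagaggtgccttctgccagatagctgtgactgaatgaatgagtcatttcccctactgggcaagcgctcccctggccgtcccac

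The Rrm1 window holds 2 CCAAT boxes, which begin 91 and 45 bases before the start, and the Rrm2 window holds 1, which begins 50 bases before it. CCAAT, searched on both strands, is common: it occurs in 33.85% of all 32851 windows. It occurs in 10 of the 37 member windows, which belong to 9 of the 29 members that have a window. The core of the interferon-stimulated response element, GAAANNGAA on either strand, occurs in 7.13% of all windows and in 3 of the 37 member windows (Cmpk1, Nme1 and Pnp). The core of the gamma-activated site, TTCNNNGAA, which reads the same on both strands, occurs in 7.02% of all windows and in 3 of the 37 member windows (Ada, Adsl and Paics). Neither of these cores is among the letters of any of the 3 Upp1 windows. The E-box CACGTG occurs in 6.02% of all windows and in 4 of the 37 member windows, which belong to Impdh2, Nme1 and Paics. A match to such letters is a description and not a binding site.

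Mutant against wild-type asked whether the mutant genotype changes the RNA of these enzymes on a diet without folate and choline. None of the 29 members passed an adjusted p of 0.05 in limma's test over all 13576 probe sets (the smallest was 0.998). Of all probe sets 0.0221% passed. At an unadjusted p under 0.05 there were 2 members, Upp1 and Guk1, against 3.84% of all probe sets. The log2 fold changes of the members were centred near 0, with a median of 0.02 beside 0.00364 over all probe sets, 18 above 0 and 11 below. The 95% interval lay inside a 2-fold change either way for 28 of the 29, Upp1 being the exception, and inside a 1.5-fold change for 21.

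**Figure D1:**
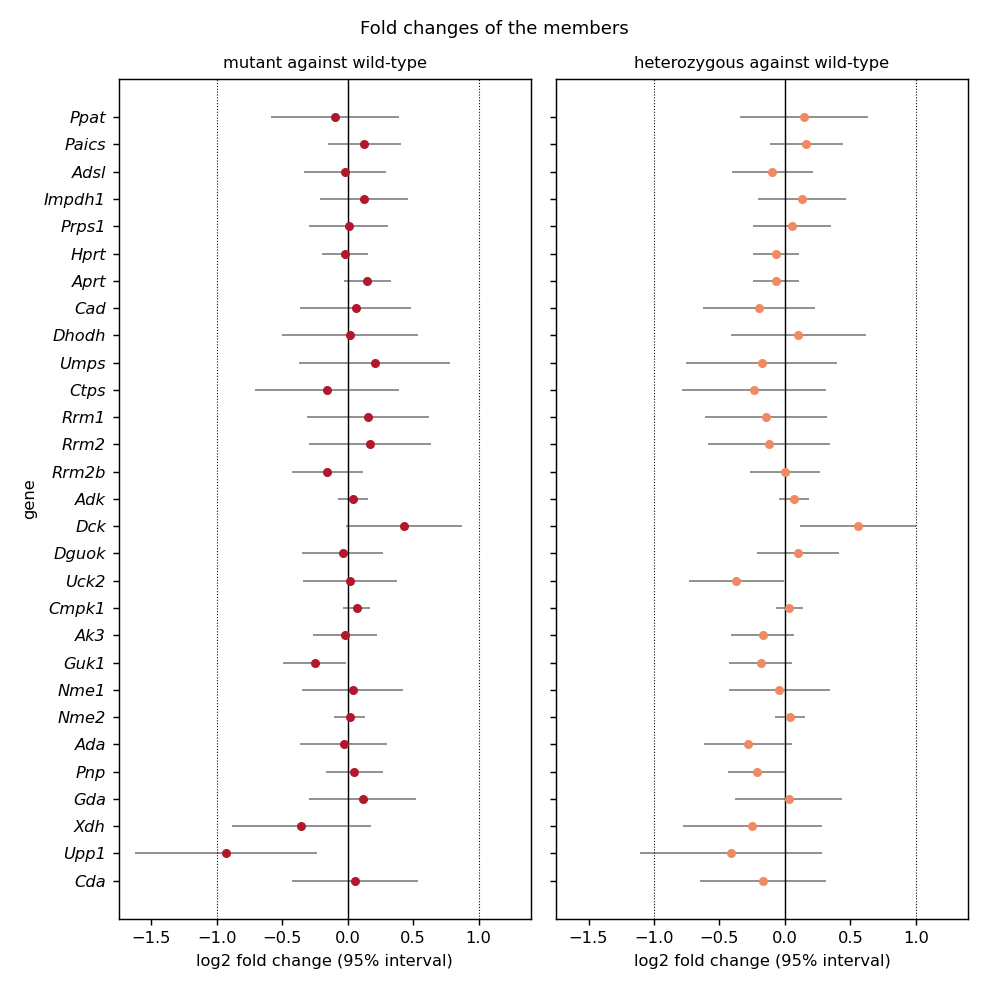
Log2 fold changes (horizontal axis, points) with limma's 95% intervals (bars) of the 29 tested members in mutant against wild-type (left) and heterozygous against wild-type colons (right), 3 mice per genotype; the dotted lines mark a 2-fold change. Upp1 has the lowest value in mutant colons, -0.93, and Dck the highest in heterozygous colons, 0.56; no member passed the adjusted threshold.

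In heterozygous against wild-type colons no member passed either, with a smallest adjusted p of 0.584, in a comparison in which 0% of all probe sets passed. At an unadjusted p under 0.05 there were 3 members, Dck, Uck2 and Pnp, against 8.01% of all probe sets. The median over the members was -0.07, beside -0.00441 over all probe sets, with 12 above 0 and 17 below. The interval lay inside a 2-fold change for 27 of 29, all but Dck and Upp1. This comparison shares its wild-type arrays with the one before.

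Mutant against heterozygous set the carrier genotypes against each other, and here too no member passed (smallest adjusted p = 0.648, with 0.0221% of all probe sets passing). The unadjusted p was under 0.05 for Aprt, Uck2 and Pnp, 3 members against 7.56% of all probe sets. All 3 were higher in mutant than in heterozygous colons. The median over the members was 0.05, beside 0.00129 over all probe sets. Upp1 was the only member whose interval reached beyond a 2-fold change.

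**Figure D2:**
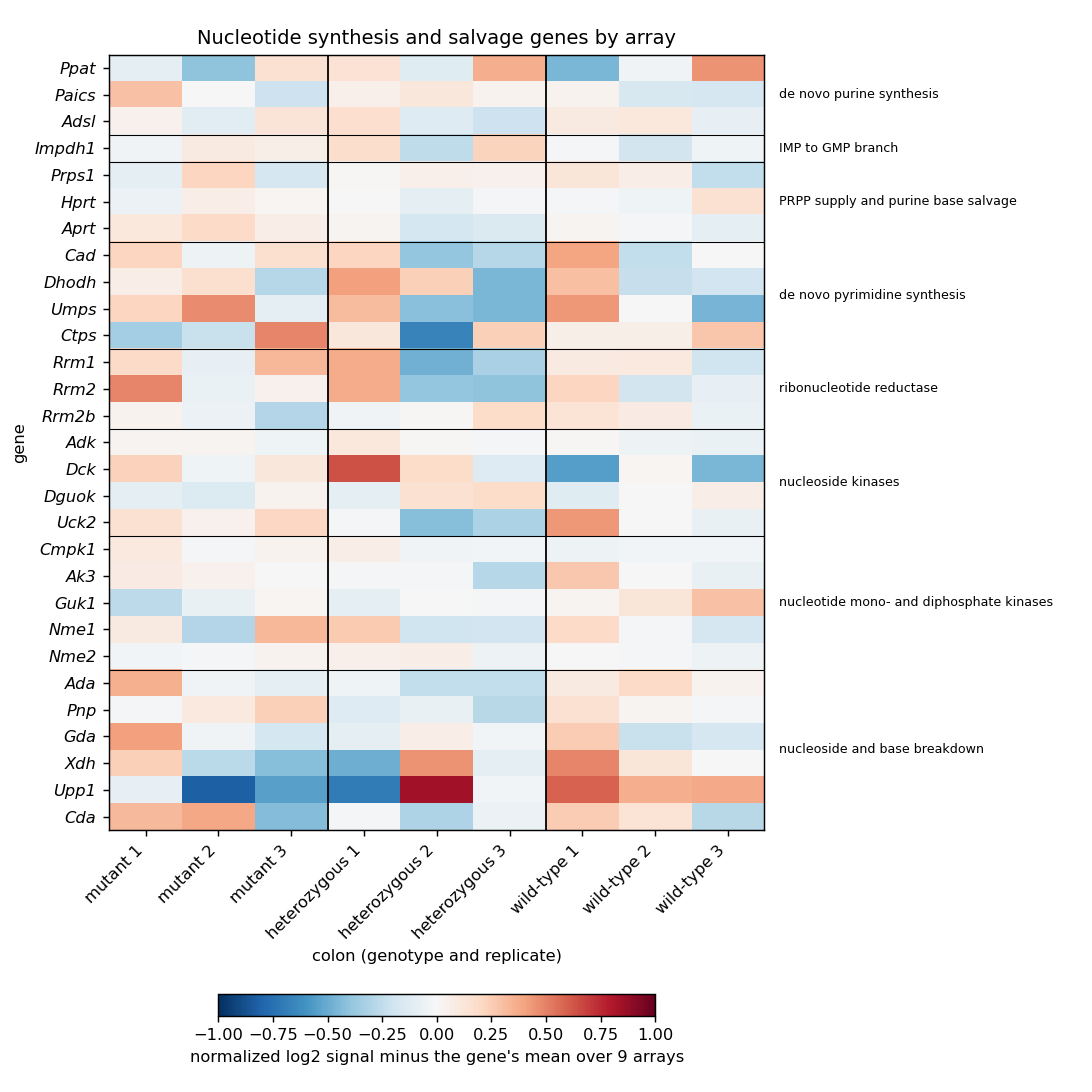
Heat map of the 29 tested members (rows, grouped by role) in the 9 colons (columns, ordered mutant, heterozygous, wild-type); colour is the normalized log2 signal minus the gene's mean over the 9 arrays. Most rows are pale, and the darkest cells belong to Upp1, whose highest value is in heterozygous 2 and whose lowest is in mutant 2.

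The enzymes that build the purine ring showed no fold change that passed. Ppat, which catalyses the first committed step, averaged 688 ± 152 signal units in mutant, 815 ± 146 in heterozygous and 749 ± 272 in wild-type colons (SD, n = 3 each, as for all means below). Paics, which carries the carboxylase and the next ligase of the route, averaged 1375 ± 227, 1390 ± 48.7 and 1231 ± 72. Adsl, the lyase used both in ring synthesis and in making AMP, averaged 236.5 ± 37.6, 227.3 ± 16.8 and 239.7 ± 21.2. The genotypes overlapped on each of these probe sets after normalization, while on the deposited scale the heterozygous values of Paics (1360.3 to 1445.8) lay above its wild-type values (1184.8 to 1313.7). On the dimmest Paics probe set the mutant values lay above the wild-type ones after normalization but not as deposited (log2 fold change 0.23, unadjusted p = 0.0801, adjusted p = 0.998). On the remaining Paics probe set the genotypes overlapped, with a log2 fold change of 0.04. The dimmer probe set of Ppat read 188, 175.1 and 256.5 in mutant, 274.9, 247.1 and 263 in heterozygous and 267.5, 265.1 and 262 in wild-type colons (log2 fold change -0.34 in mutant against wild-type, unadjusted p = 0.0439, adjusted p = 0.998). There every mutant value lay below every wild-type value, mutant 3 only narrowly, while for the brighter probe set of Ppat the log2 fold change was -0.10. Paics and Ppat are neighbours that are transcribed in opposite directions from the same stretch of chromosome 5.

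In the branches that follow, Impdh1, which turns IMP towards GMP, averaged 138.6 ± 20.3 in mutant, 144.1 ± 29.4 in heterozygous and 126.5 ± 13.1 in wild-type colons. Prps1, which makes PRPP, the ribose donor, had the fold change nearest to 0 of the 29 in mutant against wild-type, with a log2 fold change of 0.00642 (95% interval -0.30 to 0.31). Hprt, which salvages hypoxanthine and guanine, averaged 2189 ± 71, 2119 ± 112 and 2225 ± 140. Its interval in mutant against wild-type, -0.20 to 0.15 on the log2 scale, was narrow.

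Aprt, which salvages adenine, read 2497.4, 2500.9 and 2221.7 in mutant, 2317, 1931.3 and 1946.9 in heterozygous and 2349.4, 2128.9 and 2031.1 in wild-type colons. After normalization the mutant values lay above all others, but on the deposited scale mutant 3 lay among the wild-type values. The log2 fold change was 0.15 (SE 0.0809) against wild-type and 0.22 (SE 0.0809, unadjusted p = 0.0206, adjusted p = 0.648) against heterozygous. On its other probe set the log2 fold change was 0.19 in mutant against heterozygous colons (unadjusted p = 0.146).

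In pyrimidine ring synthesis, Cad carries the enzyme activities that open the route, Dhodh acts in the mitochondrion, Umps closes the route at UMP, and Ctps makes CTP from UTP. Cad averaged 621.2 ± 56.7 in mutant, 521.4 ± 98.3 in heterozygous and 596.1 ± 103 in wild-type colons. Dhodh averaged 144.1 ± 19.6, 160.7 ± 41.3 and 143.9 ± 17.6. Ctps averaged 888.6 ± 328, 844.1 ± 256 and 956 ± 117. The genotypes overlapped for all 3, and Ctps spread widely within each genotype, from 644.7 to 1261.7 among the mutant colons.

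Umps was read by 2 tested probe sets that went opposite ways in mutant colons. On the one with the higher mean, the signal was 202.7, 276.6 and 198.3 in mutant, 226.4, 146.5 and 148.7 in heterozygous and 237.6, 204.6 and 145.1 in wild-type colons, and the genotypes overlapped (log2 fold change 0.21, SE 0.263, in mutant against wild-type). On the other Umps probe set it was 146.8, 163.3 and 181.6 in mutant, 160.1, 129.1 and 171.7 in heterozygous and 196, 242.9 and 195.3 in wild-type colons. There every wild-type value lay above every mutant and heterozygous value. The log2 fold changes were -0.33 in mutant (unadjusted p = 0.049) and -0.46 in heterozygous colons (unadjusted p = 0.011), and neither passed (adjusted p = 0.998 and 0.569).

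Ribonucleotide reductase is a complex of the large subunit Rrm1 with the small subunit Rrm2, made in S phase, or with Rrm2b, the small subunit induced by p53. Rrm1 read 287.3, 261.1 and 376.6 in mutant, 329.7, 197.7 and 231 in heterozygous and 264.3, 307.2 and 250.4 in wild-type colons. Rrm2 read 2360.3, 1540.2 and 1648.3 in mutant, 2147.3, 1244 and 1232.5 in heterozygous and 1905.1, 1422.9 and 1507.4 in wild-type colons. The genotypes overlapped for both, and heterozygous 1 was high while heterozygous 2 and 3 were low. For Rrm2 the array numbered 1, with the greatest actin ratio, was the highest of each genotype. The log2 fold changes were 0.15 (SE 0.212) for Rrm1 and 0.17 (SE 0.211) for Rrm2 in mutant, and -0.14 and -0.12 in heterozygous colons. Rrm2b, in contrast, averaged 814.5 ± 58.7 in mutant, 910.9 ± 104 in heterozygous and 902 ± 39.2 in wild-type colons, with a log2 fold change of -0.15 in mutant against wild-type (unadjusted p = 0.23). Its mutant values lay below the wild-type ones on the deposited scale and overlapped them after normalization. The dimmer tested probe set of Rrm2 averaged 191.8 ± 33.6 in mutant and 123.1 ± 46.1 in heterozygous colons (log2 fold change 0.66, unadjusted p = 0.0475, adjusted p = 0.655).

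Rrm1 and Rrm2 were set beside markers of dividing cells from the same extracts. The 11 tested genes of a 12-gene proliferation list, among them Mki67 and Top2a, had a mean normalized log2 signal of 9.16, 8.87 and 9.05 in mutant, 8.99, 8.76 and 8.55 in heterozygous and 8.93, 8.80 and 8.80 in wild-type colons. This level, too, was highest on the array numbered 1 of each genotype. Their summed signal ranged over 7051 to 8103 in mutant, 5903 to 7311 in heterozygous and 6776 to 6911 in wild-type colons, and no gene of the list was listed at 0 on any array. In a fit with genotype and this level as terms, chosen after these values had been seen, the log2 signal of Rrm2 rose by 1.87 (SE 0.378, unadjusted p = 0.000581) for each log2 unit of the list. The slopes were 1.43 for Rrm1 (unadjusted p = 0.0232), 1.32 for Cad (0.0219) and 1.28 for Nme1 (0.0119). Without the arrays numbered 1 they were 0.32 for Rrm2, 0.57 for Rrm1, 0.20 for Cad and 1.43 for Nme1, and without heterozygous 1 alone that of Rrm1 was 0.57. The part of RNA shortening or amplification in these slopes was not tested further. None of the slopes passed over all probe sets (adjusted p = 0.728 for each, with 0% of all probe sets passing in either direction). The 4 members at an unadjusted p under 0.05 all had positive slopes, against 3.93% of all probe sets, and none had a negative slope at that p, against 2.90%. The proliferation list was not uniform. In mutant against wild-type 9 of its 11 tested genes were above 0, Cdc20 most (log2 fold change 0.64), and 2 below, Pcna (-0.17) and Bub1 (-0.07). In heterozygous against wild-type 4 were above 0 and 7 below, and none passed in either comparison.

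**Figure D3:**
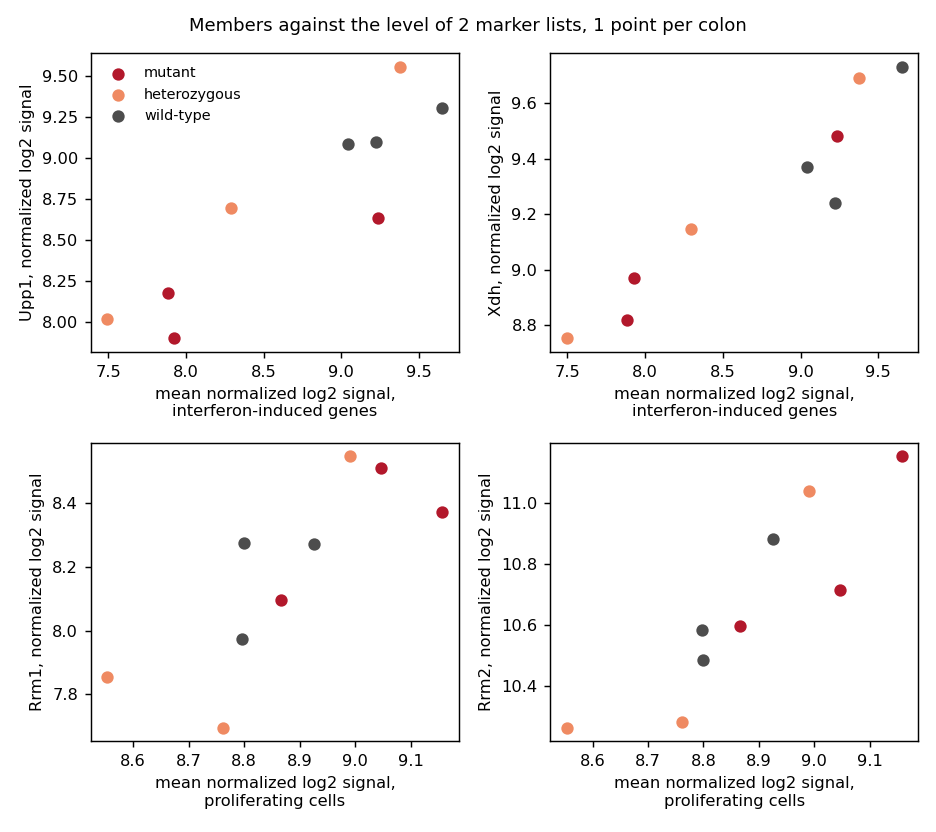
Normalized log2 signal of Upp1 and Xdh (top) against the mean level of interferon-induced genes, and of Rrm1 and Rrm2 (bottom) against the mean level of genes of proliferating cells, 1 point per colon, coloured by genotype. Heterozygous 2, with 9.37 on the interferon list, has high Upp1 and Xdh, and heterozygous 1, with 7.50, has low values of both.

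The nucleoside kinases, which begin salvage by phosphorylating nucleosides, included the highest fold change of the set. Dck, which phosphorylates deoxycytidine and purine deoxynucleosides, read 672.6, 599 and 698.1 in mutant, 923, 709.9 and 580.6 in heterozygous and 369.5, 636.6 and 465.7 in wild-type colons. Wild-type 2 lay within the values of both other genotypes, and wild-type 1 and 3 lay below all of them. The log2 fold change was 0.43 (SE 0.202, unadjusted p = 0.0578, adjusted p = 0.998) in mutant and 0.56 (SE 0.202, unadjusted p = 0.0185, adjusted p = 0.584) in heterozygous colons. Its dimmer tested probe set had 0.11 and 0.23, and array weights brought the values of the leading Dck probe set to 0.12 and 0.20.

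Uck2, which phosphorylates uridine and cytidine, read 283, 290.4 and 348.5 in mutant, 255, 210.5 and 236.1 in heterozygous and 341.2, 290 and 280.5 in wild-type colons. All 3 heterozygous values lay below all others on this deposited scale, and after normalization heterozygous 1 lay among the wild-type values. The log2 fold change was -0.37 (SE 0.164, unadjusted p = 0.0449, adjusted p = 0.612) in heterozygous against wild-type and 0.39 (unadjusted p = 0.0375, adjusted p = 0.655) in mutant against heterozygous colons. On the other tested Uck2 probe set the values overlapped, with 234.8 ± 43.9 in mutant, 218.4 ± 29.2 in heterozygous and 215 ± 5.4 in wild-type colons.

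Adk, which phosphorylates adenosine, varied little between mice after normalization. On the deposited scale it averaged 4433 ± 602 in mutant, 4474 ± 660 in heterozygous and 4375 ± 653 in wild-type colons, and was highest on the array numbered 1 of each genotype. Its normalized values had an SD within genotypes of 0.0482 on the log2 scale, and the log2 fold changes were 0.04 in mutant and 0.07 in heterozygous colons. A dimmer Adk probe set differed from it, with 339.7 ± 59 in mutant and 220.4 ± 64.2 in heterozygous colons (log2 fold change 0.63, unadjusted p = 0.0177, adjusted p = 0.637). Dguok, the mitochondrial deoxyguanosine kinase, averaged 87.77 ± 15.9, 103 ± 20.4 and 91.9 ± 17.1 in mutant, heterozygous and wild-type colons.

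Among the kinases that raise monophosphates and diphosphates, Guk1, which makes GDP from GMP, was the member that lay on one side of wild-type in both carrier genotypes after normalization. It read 982.6, 1177.6 and 1278.2 in mutant, 1128.1, 1239.7 and 1232.9 in heterozygous and 1206.9, 1346.9 and 1492.8 in wild-type colons on the deposited scale, where the genotypes overlapped. The normalized log2 values were 10.02, 10.21 and 10.30 in mutant, 10.19, 10.28 and 10.26 in heterozygous and 10.31, 10.41 and 10.57 in wild-type colons, where mutant 3 lay just below wild-type 1. The log2 fold change of Guk1 was -0.25 (SE 0.108, unadjusted p = 0.0396, adjusted p = 0.998) in mutant and -0.19 (unadjusted p = 0.113, adjusted p = 0.693) in heterozygous colons. Guk1 lies on chromosome 11, as Shmt1 does, with 36 protein-coding genes between them. Since the wild-type arrays serve both comparisons, the agreement of the 2 is not independent.

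Among the other kinases of this group, Cmpk1 and Nme2 varied least and Nme1 most after normalization. On the deposited scale Cmpk1 averaged 5875 ± 1040 in mutant, 5651 ± 927 in heterozygous and 5731 ± 847 in wild-type colons. Deposited Nme2 averaged 4054 ± 329, 4123 ± 474 and 4103 ± 535, and both were highest on the array numbered 1 of each genotype. Cmpk1, which phosphorylates UMP and CMP, and Nme2, a nucleoside diphosphate kinase, had SDs within genotypes of 0.0474 and 0.0435, and log2 fold changes of 0.07 and 0.01 in mutant colons. The mutant values of Cmpk1 lay above the wild-type ones after normalization but not on the deposited scale. Nme1, the neighbour and close relative of Nme2, averaged 1331 ± 282 in mutant, 1271 ± 236 in heterozygous and 1287 ± 144 in wild-type colons, with an SD within genotypes of 0.259 on the log2 scale. Ak3, the mitochondrial kinase that uses GTP to phosphorylate AMP, averaged 1761 ± 70.7, 1588 ± 159 and 1801 ± 275.

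Counted over the 29 members after normalization, 2 lay wholly above wild-type in mutant colons (Aprt and Cmpk1, against 4.23% of all probe sets) and 2 wholly below (Guk1 and Upp1, against 4.19%). In heterozygous colons none lay wholly above (against 7.28%) and 3 wholly below (Guk1, Ada and Pnp, against 7.42%). Mutant values lay wholly above heterozygous ones for 4 members, Aprt, Uck2, Ak3 and Pnp, against 6.35%, and wholly below for none, against 6.08%.

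Among the enzymes of nucleoside and base breakdown, Upp1 had the largest fold change of the 29 members in mutant against wild-type. Upp1 splits uridine into uracil and ribose phosphate. Its signal was 346.4, 225.1 and 296.6 in mutant, 225.3, 755.2 and 420.5 in heterozygous and 569, 541 and 559.7 in wild-type colons. All mutant values lay below all wild-type values, the wild-type mice lay close together, and the heterozygous mice spanned the range of both. The mutant mean was 1.9-fold lower on the normalized scale (log2 fold change -0.93, SE 0.316, 95% interval -1.62 to -0.23, unadjusted p = 0.0134), and it did not pass (adjusted p = 0.998). In heterozygous against wild-type the log2 fold change was -0.41 (unadjusted p = 0.223). It was -0.81 without heterozygous 2, -0.04 without heterozygous 1 and 0.03 without the arrays numbered 1. Upp1 also had the largest SD within genotypes of all members, 0.499 on the log2 scale, where the median was 0.166 over the members and 0.173 over all probe sets. Upp1 is on chromosome 11 as well, with 385 protein-coding genes between it and Shmt1. Of the 4 members there, the others besides Guk1 are Nme1 and Nme2, with 512 and 511 protein-coding genes between them and Shmt1. Their log2 fold changes in mutant against wild-type were 0.04 and 0.01.

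Xdh, which oxidises hypoxanthine and xanthine to uric acid, followed a similar order of mice. It read 654.6, 496.3 and 470 in mutant, 385.9, 826.7 and 575.1 in heterozygous and 778.8, 662.6 and 618 in wild-type colons. The genotypes overlapped, and heterozygous 2 was the highest on this deposited scale (wild-type 1 after normalization) and heterozygous 1 the lowest on both. The log2 fold changes were -0.36 (SE 0.241, unadjusted p = 0.168) in mutant and -0.25 in heterozygous colons.

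Upp1 and Xdh were set beside interferon-induced genes from the same extracts. The 10 tested genes of a 12-gene interferon list, none of them a member, had a mean normalized log2 signal of 9.23, 7.93 and 7.88 in mutant, 7.50, 9.37 and 8.29 in heterozygous and 9.65, 9.04 and 9.22 in wild-type colons. Mutant 1 stood apart for Upp1: its interferon level lay above those of wild-type 2 and 3, while its Upp1 signal lay below every wild-type value. The summed signal of the list ranged over 3405 to 8837 in mutant, 2278 to 9470 in heterozygous and 7307 to 11371 in wild-type colons. In a fit with genotype and this level as terms, also chosen after the values had been seen, Upp1 had a slope of 0.65 (SE 0.104, adjusted p = 0.0242) and Xdh of 0.49 (SE 0.0847, adjusted p = 0.0367) on the log2 scale. On the values as deposited the slopes were 0.65 for Upp1 (adjusted p = 0.0858) and 0.48 for Xdh (adjusted p = 0.0537), and neither passed. Without the arrays numbered 1 they were 0.77 and 0.48, and neither passed (adjusted p = 0.9998 for both). In the main fit Upp1 and Xdh were 2 of the 29 members that passed with a positive slope, against 0.442% of all probe sets. At an unadjusted p under 0.05 there were 3 members with a positive slope, Gda, Xdh and Upp1, against 2.46% of all probe sets, and 1 with a negative slope, Ctps, against 1.32%. Each of the 9 mice was left out in turn: the slopes of Upp1 and Xdh were positive 9 times of 9, but that of Upp1 passed in 4 and that of Xdh in 1. Without heterozygous 2 the adjusted p was 0.486 for Upp1 and 0.466 for Xdh, and without heterozygous 1 it was 0.279 for both. At equal interferon level in this fit, the log2 fold change of Upp1 against wild-type was -0.31 in mutant (unadjusted p = 0.12) and 0.19 in heterozygous colons (unadjusted p = 0.319). For Xdh it was 0.11 and 0.20. All 10 genes of the list had log2 fold changes below 0 in both carrier genotypes against wild-type, with medians of -0.86 in mutant and -0.94 in heterozygous colons. None of them passed (smallest adjusted p = 0.998 and 0.576). The levels also overlapped, since mutant 1 and heterozygous 2 lay within the wild-type values. The part of the interferon level in the Upp1 difference was not tested.

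Markers of immune cells also differed between the mice. The B and plasma cell list had 2 tested genes of 6, Ighm and Jchain, with means of 11.98, 8.65 and 8.15 in mutant, 8.52, 11.79 and 11.96 in heterozygous and 11.86, 11.67 and 11.27 in wild-type colons. Its summed signal ranged over 3911 to 9824, 5578 to 7623 and 5760 to 9981. Ighm, the immunoglobulin M heavy chain, read 2864.8, 15.9 and 2.6 in mutant, 10.6, 2328 and 2831.4 in heterozygous and 2303.2, 1901.7 and 1255.3 in wild-type colons. The list mean moved through Ighm, whose log2 fold changes against wild-type were -3.89 in mutant and -1.61 in heterozygous colons. For Jchain they were -0.13 and -0.08, and the other markers of this list were not tested. The mice with low Ighm were the 3 with the lowest interferon level and the lowest Upp1 signal. The 3 tested T cell genes of 6 had means of 8.48, 7.44 and 6.85 in mutant, 6.80, 8.64 and 7.89 in heterozygous and 8.95, 8.33 and 7.76 in wild-type colons, with a summed signal of 373 to 1623, 311.6 to 1437 and 642.3 to 1794. The 7 macrophage and myeloid genes had means of 9.05, 8.93 and 8.68 in mutant, 8.84, 9.24 and 9.16 in heterozygous and 9.42, 9.10 and 8.95 in wild-type colons. Their summed signal ranged over 6174 to 9248, 7491 to 8430 and 7204 to 10866 in the same order of genotypes. No gene of these 3 lists was listed at 0. Heterozygous 1 was the lowest of the heterozygous mice on all 3, as for Upp1 and Xdh. The part of these cells in the Upp1 and Xdh signals was not tested.

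**Figure D4:**
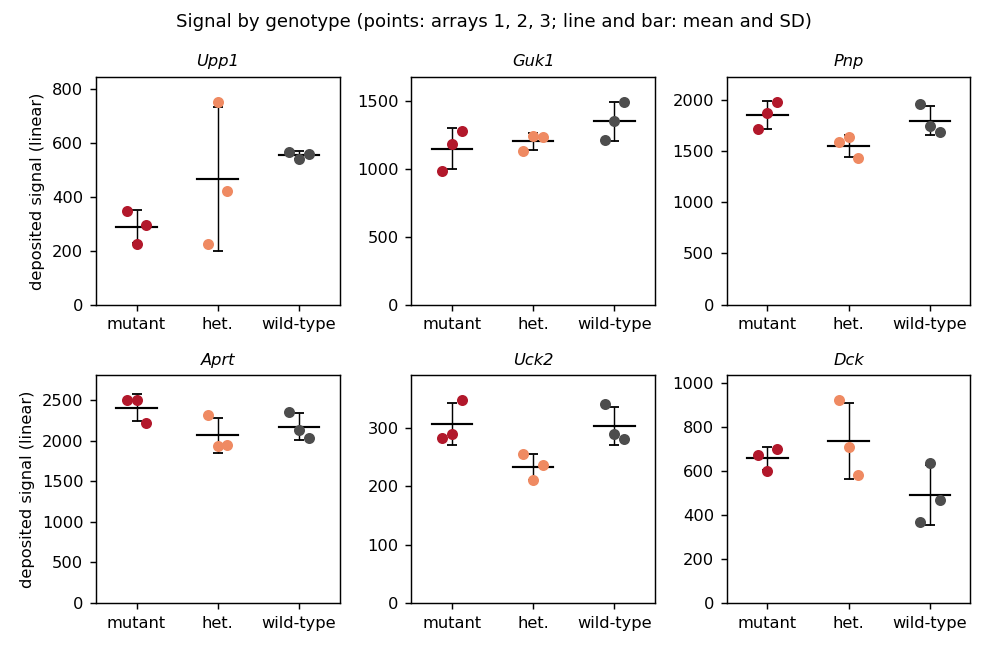
Deposited signal (vertical axis, linear, from 0) of the 6 members with an unadjusted p under 0.05 in any comparison, by genotype from mutant to wild-type; points are mice, the line is the mean and the bar the SD (n = 3). The mutant mice lie below the wild-type mice for Upp1 (225.1 to 346.4 against 541 to 569), and the heterozygous mice lie below both other genotypes for Pnp and Uck2.

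Pnp, which splits inosine and guanosine, was lower in heterozygous colons than in either other genotype. It read 1711.6, 1872.7 and 1985.3 in mutant, 1589.1, 1638.4 and 1428.7 in heterozygous and 1962.5, 1747.7 and 1686.3 in wild-type colons. No heterozygous value reached the others. The log2 fold change was -0.22 (SE 0.0982, unadjusted p = 0.0491, adjusted p = 0.622) in heterozygous against wild-type and 0.27 (unadjusted p = 0.0197, adjusted p = 0.648) in mutant against heterozygous colons, so neither passed. Ada, which deaminates adenosine and deoxyadenosine and feeds Pnp, read 183.8, 151.8 and 160 in mutant, 139.4, 135.6 and 142.5 in heterozygous and 148.1, 191 and 172.3 in wild-type colons. Its heterozygous values also lay below all others on the deposited scale (log2 fold change -0.28 against wild-type, unadjusted p = 0.09, adjusted p = 0.662).

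The genotypes overlapped for Gda and Cda. Gda, which deaminates guanine, averaged 126.5 ± 16.9 in mutant, 122 ± 16.1 in heterozygous and 116.4 ± 11.6 in wild-type colons. Cda, which deaminates cytidine, averaged 436.6 ± 115, 363.7 ± 36.6 and 410.3 ± 58.7. Nt5e, too dim to be tested, averaged 10.47 ± 2.08, 14.47 ± 1.16 and 17.73 ± 8.86, and its mutant values lay below the heterozygous ones.

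The members differed in how much they varied between mice of a genotype. The SD within genotypes on the normalized log2 scale ran from 0.0435 for Nme2 to 0.499 for Upp1, and 12 of the 29 members lay above 0.243, the 75th percentile over all probe sets. The 5 steadiest were Nme2, Cmpk1, Adk, Hprt and Aprt, all bright. The most variable after Upp1 were Umps, Ctps, Xdh, Dhodh, Ppat and Rrm2.

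Of 57 other gene symbols of nucleotide metabolism, 40 had a probe set and 28 were tested, and none passed in any of the 3 comparisons. The symbols include older and newer names of the same gene (Adss and Adss2, Adssl1 and Adss1). The median log2 fold changes of the 28 tested were -0.03 in mutant against wild-type, 0.05 in heterozygous against wild-type and -0.06 in mutant against heterozygous colons. Gart, which carries out a folate-dependent step of purine synthesis, averaged 292.7 ± 61.3 in mutant, 310.1 ± 26.5 in heterozygous and 340.3 ± 32.7 in wild-type colons (log2 fold change -0.21 in mutant against wild-type, unadjusted p = 0.132). Tyms was too dim to be tested, with means of 19.8, 22 and 18.9. Prps2, a second PRPP synthetase, read 68, 93.6 and 96.6 in mutant, 141.1, 134.9 and 169.2 in heterozygous and 77.7, 110.5 and 129.3 in wild-type colons. Its heterozygous values lay above all others (log2 fold change -0.65, SE 0.15, unadjusted p = 0.00112, adjusted p = 0.348 in mutant against heterozygous colons). Cmpk2 and Samhd1, which act on nucleotides and are known to be induced by interferon, had slopes of 0.56 (unadjusted p = 0.0151) and 0.39 (unadjusted p = 0.00273) on the interferon level. Neither slope passed (adjusted p = 0.921 and 0.330). Tk1, the thymidine kinase of dividing cells, had a slope of 2.04 on the proliferation level (unadjusted p = 0.00515, adjusted p = 0.728).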

How the data were processed

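The authors deposited 1 linear signal intensity per probe set and array for 22690 probe sets. GCOS, Affymetrix's software, is the tool listed in the submitters' processing notes, with no version or settings given in the sources used here. Amplification started from about 50 ng of RNA and used a NuGEN Ovation kit, per the labels' protocols. The arrays are scaled alike, with trimmed means of 500.1 to 500.2, while medians of log2 signal spread over 0.294. The signals were therefore quantile normalized after adding 16 and taking log2, which shrinks the fold changes of dim signals. Means and SDs in the text are deposited signals; fold changes and SEs are on the normalized log2 scale.

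Removed were 64 control probe sets and those whose mean was under the 40th percentile (a signal of 75.5), which left 13576 of 22626. All 9 arrays entered 1 limma fit (version 3.58.1, R 4.3.3; lmFit, then eBayes with a trend), without covariates, with Benjamini-Hochberg adjustment over all 13576 and a threshold of 0.05. Gene symbols are GEO's for this platform and can be out of date; 20380 probe sets have 1 symbol, 691 several and 1555 none, and those with several name no member here. A gene is read by its probe set with the highest mean deposited signal; its other probe sets are named where they differ in sign at an unadjusted p under 0.05 and in some cases chosen after their values were seen. All members are named, with values per mouse for those at an unadjusted p under 0.05 in any comparison and for a few others chosen after their values were seen. Pathway genes that are not members are named at an unadjusted p under 0.01, and Gart, Tyms, Cmpk2, Samhd1 and Tk1 after their values were seen. The members and lists were chosen with earlier results of these data known. Promoter windows are RefSeq's, of GRCm38.p6, and 29 of the 33 members matched by symbol. The same assembly's gene table gave chromosomes and neighbours. The fits were also run on simulated data with independent noise for each probe set and array. Such data hold no spread shared by arrays, so the run cannot speak to error rates here. Replicate numbers are shared across genotypes in the labels. The deviations of same-numbered arrays from their genotype's mean correlated between -0.0589 and 0.463 over 9 pairs, and the actin ratio followed the number in each genotype. These values do not settle whether same-numbered arrays were handled together. The main fit left the number out, and a block on it is among the alternatives. Alternatives were other normalizations, pseudocounts, filters and eBayes settings, array weights, the replicate number as a block, and leaving out arrays. Figures were drawn with matplotlib 3.10.9 under Python 3.11.15.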

Additional observations from a re-analysis of the deposited data

How the results depend on the processing

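No member passed in any of the 3 comparisons of genotypes in any of the alternatives that gave an adjusted p, and the lowest adjusted p was 0.177 (Upp1, mutant against wild-type, array weights), 0.101 (Ada, heterozygous against wild-type, array weights) and 0.237 (Upp1, mutant against heterozygous, without the arrays numbered 1). With the replicate number as a block the count of members was 0 in each comparison of genotypes. Over the 23 alternatives the sign of the fold change was kept by 11, 14 and 15 of the 29 members in mutant against wild-type, heterozygous against wild-type and mutant against heterozygous colons. Upp1 in mutant against wild-type stayed between -1.12 and -0.76, and Dck in heterozygous against wild-type between 0.20 and 0.74. The count over all probe sets, 3, 0 and 3, ranged over 2 to 9, 0 to 134 and 1 to 8, with 134 under array weights. The count of members called on the interferon level, 2 (Upp1 and Xdh), became 0 on the values as deposited and 0 without the arrays numbered 1. It was 0 to 2 when 1 array was left out, and the cause was not tested. With the replicate block both remained called, 2 of 2. The slopes ranged over 0.51 to 0.77 for Upp1 and 0.46 to 0.53 for Xdh over 19 alternatives. That of Rrm2 on the proliferation level ranged over 0.32 to 2.42, and no member was called on that level. Depth is not a measure of these arrays; probe sets near the brightness limit, such as Dguok, carry the least signal over background.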
